A study of Ovis aries with 18 samples.

Results

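Folate one-carbon enzymes were described in sheep blastocysts, a preimplantation embryo stage, according to the diet that the sire had received before puberty. The enzymes were chosen by name as 8 genes of the folate cycle, of which 7 had a row among the 20092 genes of the embryo count table: MTHFD1, TYMS and GART in the cytosolic branch, and MTHFD2, MTHFD1L, SHMT2 and ALDH1L2 in the mitochondrial branch. SHMT1, the cytosolic serine hydroxymethyltransferase, was not analysed here. All 7 enzymes passed the filter on low counts and were among the 16488 genes tested. RNA sequencing was performed on 12 pools of 5 embryos each, 6 from control sires and 6 from methionine-treated sires. All rams were Polypay sheep on the same basal diet. For the treated rams this diet had a 1.5 g top-dress of methionine, protected from breakdown in the rumen. The diets were fed daily for 77 days that began at about 88 days of age. Untreated superovulated Polypay ewes were bred about a couple of months after the supplement had ended, and the flushed embryos ranged from early to hatched blastocysts. Control Ram410, Ram423 and Ram444 gave 2 pools each, with 1 ewe per ram. Among the treated rams, Ram424 gave 4 pools from 2 ewes and Ram498 and Ram511 gave 1 pool each. The pools of a ram share their sire, so p-values over pools measure the spread between pools and not between independent sires.

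Folate carries single carbon units between metabolic reactions in parallel sets of enzymes in the mitochondria and the cytosol. In mitochondria the carbon of serine is largely turned into formate, which leaves for the cytosol and is loaded onto folate again, where it serves purine synthesis, thymidylate synthesis and, through methionine synthase, the remaking of methionine from homocysteine. Rapidly dividing cells such as those of the blastocyst draw on both branches for the nucleotides of new DNA.

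The summed counts of a pool ranged from 1017847 to 2398589, with a median of 1399545 in control pools and 1786690 in methionine pools. These sums are far below the reads per pool that the authors report, so most reads are not in the counts. The reason was not tested. Values are given as CPM, the count of a gene scaled to a common library size with TMM factors, which compares a gene between pools but not different genes with each other, since transcript length is not divided out. In bulk RNA of this kind, fewer cells of a type and less RNA per cell cannot be told apart. Control pool Embryo444_2 and methionine pool Embryo511_1 stood apart from the rest: their Spearman correlations with any other pool were 0.526 to 0.626, against 0.806 to 0.955 among the other 10 pools. Of 10 measured trophectoderm, inner cell mass and hypoblast markers, 6 were lower in both of these pools than in each of the others, and the markers summed to 440 CPM in Embryo444_2 and 436 CPM in Embryo511_1, against 5898 to 14947 CPM elsewhere. The hypoblast marker SOX17 was the 1 blastocyst marker listed at 0 in a pool. NANOG (9.91 and 7.93 CPM in these pools) lay within the range of the other 10 (5.10 to 16.3 CPM). GATA4 was higher in Embryo511_1 (94.2 CPM, against at most 44.3 CPM in the other 10), and PDGFRA in Embryo444_2 (166 CPM, against at most 155 CPM). KRT8 had the highest level of these markers in the other 10 pools (median 6371 CPM) and weighs most in the sum. Of 5 measured markers of other cells, the leukocyte marker PTPRC (121 and 254 CPM, against at most 76.5 CPM) and the stromal COL1A1 (115 and 119 CPM, against at most 83.5 CPM) were higher in these pools than in each of the other 10, and the macrophage marker CD68 and the erythroid ALAS2 were lower. The sum of the 5 was 328 and 519 CPM, against 213 to 800 CPM elsewhere. Very long genes of other tissues, 11 in all, summed to 4284 and 3999 CPM, against 2092 to 3508 CPM. Of these, 4 were higher in both pools than in each of the other 10. The muscle gene TTN was not among the 4 (1781 and 1391 CPM, against 930 to 1519 CPM). Results are therefore given for 12 pools and again for 10 pools, a choice made after the values had been seen. The part of these library differences in the results was not tested. Pools Embryo424_1 and Embryo424_2 resembled each other more than other pairs of pools of a ram (a mean chi-square per gene of 3.29, against 8.29 to 26.1), but differed by more than counting noise. This measure leaves out amplification noise, so it cannot tell separate samples from repeats. The labels list them as separate pools, and they were counted separately.

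Across the 12 pools, no folate enzyme differed by sire diet at a false discovery rate (FDR) under 0.05, and neither did any of the 16488 genes tested with edgeR's quasi-likelihood test (0% called, with 7.92% of genes at an unadjusted p under 0.05). None of the 7 enzymes had an unadjusted p under 0.05, where 3.55% of all genes did with a higher level and 4.37% with a lower level in methionine pools. The 2 diets overlapped in CPM for every enzyme, as they did for all but 0.352% of genes. With pools as the unit, the mitochondrial enzymes SHMT2 and MTHFD1L had the largest differences of the 7, and their highest levels lay in pools of a single treated ram, Ram424. The plot of levels by pool shows each enzyme.

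**Figure D1:**
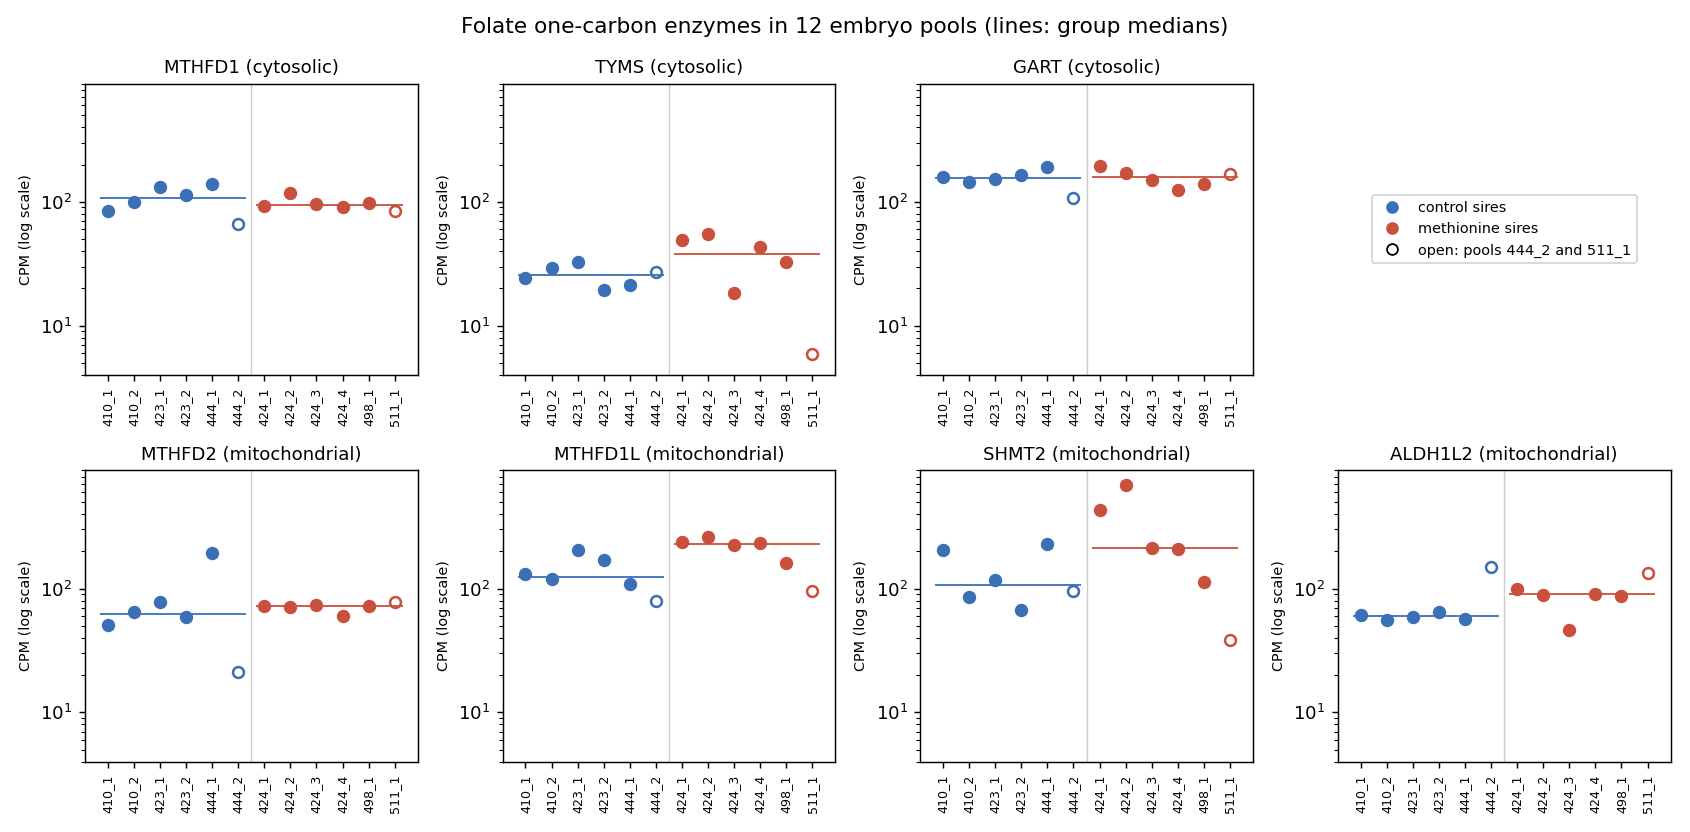
Level of each of the 7 folate enzymes in CPM (log scale) in each of the 12 embryo pools, in blue for control and red for methionine sires, with a line at the median of each group and open circles for pools Embryo444_2 and Embryo511_1. MTHFD1L was at 226 to 260 CPM in the 4 pools of Ram424 and at 79.3 to 206 CPM in the other 8, while the methionine pools of MTHFD1 lay inside the control range of 66.5 to 141 CPM.

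In the cytosolic branch, MTHFD1 codes for the trifunctional enzyme that loads formate onto tetrahydrofolate and interconverts the resulting folates. Its level was 85.0 and 99.9 CPM in the pools of control Ram410, 133 and 114 CPM in those of Ram423, and 141 and 66.5 CPM in those of Ram444. In methionine pools it was 92.2, 118, 96.0 and 90.9 CPM for Ram424, 97.0 CPM for Ram498 and 84.3 CPM for Ram511. All methionine pools lay inside the control range, and the lowest 2 values of the 12 were those of pools Embryo444_2 and Embryo511_1. The means were 106 ± 28.3 CPM in control pools and 96.4 ± 11.4 CPM in methionine pools (SD, n = 6 each), a log2 fold change of -0.14 (SE 0.23, 95% interval -0.62 to 0.34, edgeR quasi-likelihood test with Benjamini-Hochberg adjustment, adjusted p = 0.887).

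TYMS codes for thymidylate synthase, which makes the thymidine nucleotide of DNA with a carbon from folate. It was measured at 24.1 and 29.0 CPM in Ram410 pools, 32.9 and 19.2 CPM in Ram423 pools, and 21.3 and 26.9 CPM in Ram444 pools. The 4 pools of Ram424 had 48.7, 54.9, 18.4 and 43.3 CPM, the pool of Ram498 had 32.5 CPM and that of Ram511 had 5.95 CPM. Thus 3 of the 4 Ram424 pools exceeded every control pool, while 2 methionine pools, Embryo424_3 and Embryo511_1, lay below all of them. The lowest value rested on 6 reads, with an exact 95% Poisson interval of 2.20 to 13.1 reads that covers counting error only. Methionine pools averaged 34.0 ± 18.8 CPM and control pools 25.6 ± 5.05 CPM (SD, n = 6 each), and the log2 fold change of 0.42 (SE 0.39, 95% interval -0.40 to 1.25) had an adjusted p of 0.797 by edgeR's quasi-likelihood test with Benjamini-Hochberg adjustment.

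GART codes for a trifunctional enzyme of purine synthesis, 1 activity of which takes its carbon from formyl-tetrahydrofolate. Control pools had 159 and 144 CPM for Ram410, 154 and 166 CPM for Ram423, and 192 and 108 CPM for Ram444. Methionine pools had 194, 171, 150 and 124 CPM for Ram424, 140 CPM for Ram498 and 167 CPM for Ram511. The diets covered nearly the same range, and pool Embryo444_2 was again the lowest. The group means were 154 ± 27.6 and 158 ± 24.5 CPM (SD, n = 6 each) in control and methionine pools, with a log2 fold change of 0.04 (SE 0.23, 95% interval -0.45 to 0.52, adjusted p = 0.980, edgeR quasi-likelihood test with Benjamini-Hochberg adjustment).

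In the mitochondrial branch, SHMT2 codes for serine hydroxymethyltransferase, which transfers the carbon of serine to folate and releases glycine. Its level was 203 and 85.7 CPM in Ram410 pools, 117 and 66.7 CPM in Ram423 pools, and 230 and 96.3 CPM in Ram444 pools. Ram424 pools had 433, 691, 212 and 209 CPM, whereas the pools of Ram498 and Ram511 had 114 and 38.7 CPM. The lowest and the highest of the 12 values both belonged to methionine pools, and the 2 pools of Ram424 above every control pool were Embryo424_1 and Embryo424_2. With pools as the unit, SHMT2 had the largest difference of the 7 enzymes, 283 ± 240 CPM in methionine pools against 133 ± 67.2 CPM in control pools (SD, n = 6 each), or 1.09 on the log2 scale (SE 0.53, 95% interval -0.04 to 2.22). The unadjusted p was 0.0579 and the adjusted p was 0.645 (edgeR quasi-likelihood test with Benjamini-Hochberg adjustment), and an exact permutation test over all assignments of pools to the diets gave p = 0.299. The log2 fold change was 0.59 without pool Embryo424_2 and 0.76 with pools Embryo424_1 and Embryo424_2 summed. It was 0.49 with the counts summed per ram, as for ALDH1L2 (0.49), and 0.20 with a random ram effect in limma, below ALDH1L2 (0.38) and MTHFD1L (0.36). The RefSeq gene table used for names lists SHMT2 as an older symbol of SHMT1, so the identity of this row rests on the name in the count table.

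MTHFD2 codes for the mitochondrial dehydrogenase and cyclohydrolase that takes the carbon unit from methylene-tetrahydrofolate to formyl-tetrahydrofolate. Control pools had 51.2 and 64.4 CPM for Ram410, 77.9 and 59.0 CPM for Ram423, and 194 and 21.2 CPM for Ram444. Methionine pools had 71.7, 71.3, 73.4 and 59.5 CPM for Ram424, 72.9 CPM for Ram498 and 77.3 CPM for Ram511. The highest and the lowest of the 12 values thus came from the 2 pools of control Ram444, while the 6 methionine pools spanned a narrow range. The mean was higher in control pools (78.0 ± 60.1 against 71.0 ± 6.04 CPM, SD, n = 6 each) but the median was higher in methionine pools (72.3 against 61.7 CPM). The log2 fold change was -0.14 (SE 0.37, 95% interval -0.92 to 0.65, adjusted p = 0.942, edgeR quasi-likelihood test with Benjamini-Hochberg adjustment) and was 0.37 without pool Embryo444_1. Averaged per ram on the log2(CPM + 1) scale, all 3 treated rams lay above all 3 control rams for MTHFD2, which has the smallest p that the 20 ways to assign the rams allow (exact permutation test, p = 0.1), and 7.36% of all genes had ram means that did not overlap. This rested on the low value of pool Embryo444_2: in 10 pools the exact permutation test over rams gave p = 1, and in mean CPM control Ram444 (108 CPM) lay above Ram424, Ram498 and Ram511 (69.0, 72.9 and 77.3 CPM).

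MTHFD1L codes for the mitochondrial formate-tetrahydrofolate ligase, which releases formate. It was at 130 and 119 CPM in Ram410 pools, 206 and 170 CPM in Ram423 pools, and 109 and 79.3 CPM in Ram444 pools. Ram424 pools had 238.5, 260, 226 and 231.5 CPM, the Ram498 pool 162 CPM and the Ram511 pool 95.2 CPM. Every pool of Ram424 exceeded the other 8 pools, a pattern that MTHFD1L had as the 1 member of the 7 and that 1.82% of all genes had. The pools of Ram498 and Ram511 lay within the control range, and pools Embryo444_2 and Embryo511_1 were the lowest of the 12. The means of 136 ± 45.6 CPM in control and 202 ± 62.0 CPM in methionine pools (SD, n = 6 each) corresponded to a log2 fold change of 0.58 (SE 0.30, 95% interval -0.07 to 1.22, unadjusted p = 0.0753, adjusted p = 0.663, edgeR quasi-likelihood test with Benjamini-Hochberg adjustment). The exact permutation test gave p = 0.0931 over pools and p = 0.7 over rams.

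ALDH1L2 codes for the mitochondrial formyl-tetrahydrofolate dehydrogenase, which oxidizes the carbon unit to carbon dioxide and yields NADPH. Control pools were at 61.0 and 55.2 CPM for Ram410, 58.6 and 64.2 CPM for Ram423, and 56.8 and 149 CPM for Ram444. The 6 methionine pools were at 98.9, 89.5, 46.6 and 90.5 CPM for Ram424, 86.7 CPM for Ram498 and 134 CPM for Ram511. The highest values were those of pools Embryo444_2 and Embryo511_1, and apart from these the 5 control pools lay between 55.2 and 64.2 CPM, with 4 of the 5 methionine pools above them and pool Embryo424_3 below. Methionine pools averaged 91.0 ± 27.9 CPM and control pools 74.1 ± 36.7 CPM (SD, n = 6 each). The log2 fold change was 0.29 (SE 0.30, 95% interval -0.34 to 0.93), with an adjusted p of 0.817 by edgeR's quasi-likelihood test with Benjamini-Hochberg adjustment.

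The 2 pools that stood apart took opposite ends for different enzymes. ALDH1L2 was higher in both than in each of the other 10 pools, as was the case for 8.15% of all genes, whereas MTHFD1 and MTHFD1L were lower in both, as were 12.9% of all genes. Relative to the median of the other 10 pools, ALDH1L2 was higher by 1.25 in pool Embryo444_2 and 1.10 in pool Embryo511_1 on the log2 scale. MTHFD2 was at -1.75 in pool Embryo444_2 but 0.11 in pool Embryo511_1 on this scale, and SHMT2 and TYMS were at -2.41 and -2.37 in pool Embryo511_1. The summed blastocyst markers of both pools were far below those of the rest, though only 6 of the 10 measured were lower in both, as given above.

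Without pools Embryo444_2 and Embryo511_1, 4 of the 7 enzymes had an unadjusted p under 0.05, all with higher values in methionine pools, but no enzyme passed the FDR. Among all 16161 genes tested in these 10 pools, 11.9% had an unadjusted p under 0.05 (5.74% higher and 6.18% lower in methionine pools), and 0.00619% passed the FDR, a single gene, MROH5, named after its value was seen. In this fit SHMT2 had a log2 fold change of 1.22 (SE 0.43, unadjusted p = 0.0117, adjusted p = 0.316) and MTHFD1L of 0.59 (SE 0.22, unadjusted p = 0.0167, adjusted p = 0.342) by edgeR's quasi-likelihood test with Benjamini-Hochberg adjustment. TYMS followed with 0.64 (SE 0.30, adjusted p = 0.412) and ALDH1L2 with 0.47 (SE 0.22, adjusted p = 0.408) in the same edgeR test. MTHFD1, GART and MTHFD2 had log2 fold changes of -0.22, -0.08 and -0.37. The diets still overlapped for each enzyme, where 1.77% of all genes did not overlap. Over the 252 assignments of 10 pools, exact permutation tests gave p = 0.0238 for MTHFD1L, 0.0476 for ALDH1L2, 0.103 for SHMT2 and 0.119 for TYMS. With the 5 remaining rams as the unit, TYMS and ALDH1L2 were at the smallest p that 10 assignments allow (exact permutation test, p = 0.1), where 18.4% of all genes had ram means that did not overlap, while MTHFD1L had p = 0.3 and SHMT2 p = 0.6. With the same 10 pools summed per ram, none of the 4 enzymes had an unadjusted p under 0.05 in edgeR's quasi-likelihood test, and the share of all genes was 4.6%. The unadjusted edgeR p was then 0.0824 for TYMS, 0.0666 for ALDH1L2, 0.131 for MTHFD1L and 0.165 for SHMT2.

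**Figure D2:**
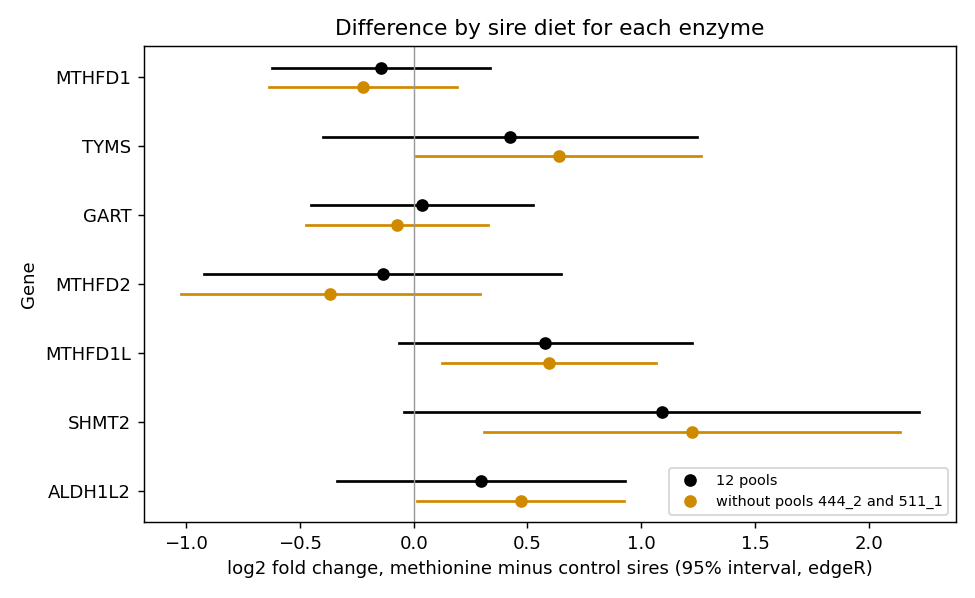
Log2 fold change of each enzyme, methionine minus control sires, with its 95% interval from edgeR, in 12 pools (black) and without pools Embryo444_2 and Embryo511_1 (orange). All 7 intervals spanned 0 in 12 pools, and those of TYMS, MTHFD1L, SHMT2 and ALDH1L2 lay above 0 in 10 pools, with no adjusted p under 0.05.

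The differences of SHMT2, MTHFD1L and TYMS depended on Ram424, which gave 4 of the 6 methionine pools. Without this ram the log2 fold changes were -0.79 for SHMT2, -0.07 for MTHFD1L and -0.37 for TYMS. The methionine group then held only pools Embryo498_1 and Embryo511_1, and pool Embryo511_1, which stood apart, carried its lowest values of all 3 enzymes. For TYMS, the pool of Ram498 (32.5 CPM) was above the mean of every control ram (24.1 to 26.6 CPM). The mean level of SHMT2 was 386 CPM over the pools of Ram424, 114 CPM in the pool of Ram498 and 38.7 CPM in that of Ram511, against 144, 91.9 and 163 CPM in control Ram410, Ram423 and Ram444. For MTHFD1L, Ram424 had a mean of 239 CPM, followed by control Ram423 with 188 CPM, Ram498 with 162 CPM, Ram410 with 125 CPM, Ram511 with 95.2 CPM and Ram444 with 93.9 CPM. The treated rams therefore took the first, the third and the fifth place in this order. Ram, ewe and diet cannot be told apart within the pools of Ram424.

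To compare the branches, each enzyme was centred on its mean log2(CPM + 1) over the 12 pools, and the mean over cytosolic enzymes was subtracted from the mean over mitochondrial enzymes in each pool. This branch difference was -0.05 and -0.46 in the pools of control Ram410, -0.29 and -0.34 in those of Ram423, and 0.11 and -0.23 in those of Ram444. It was 0.27, 0.32, 0.29 and 0.17 in the pools of Ram424, -0.07 in that of Ram498 and 0.27 in that of Ram511. In 5 of the 6 methionine pools the value was above that of every control pool, and pool Embryo498_1 lay within the control range. These 5 were the 4 pools of Ram424, which share a sire, and pool Embryo511_1. In pool Embryo511_1 the mitochondrial mean was itself low (-0.43), and the difference was positive because the cytosolic mean was lower still (-0.70). That cytosolic mean includes TYMS at 6 reads, so the value of this pool depends on a low count. The group means were -0.21 ± 0.21 in control and 0.21 ± 0.15 in methionine pools (SD, n = 6 each), a difference of 0.42 on the log2 scale, and 0.40 without pools Embryo444_2 and Embryo511_1. The SD is between pools and not between rams. With pools averaged per ram first, the difference was 0.37. By diet, the mean of the mitochondrial enzymes differed by 0.44 and that of the cytosolic enzymes by 0.02. The enzymes were chosen with earlier results of these data known, so no p is given for this score.

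**Figure D3:**
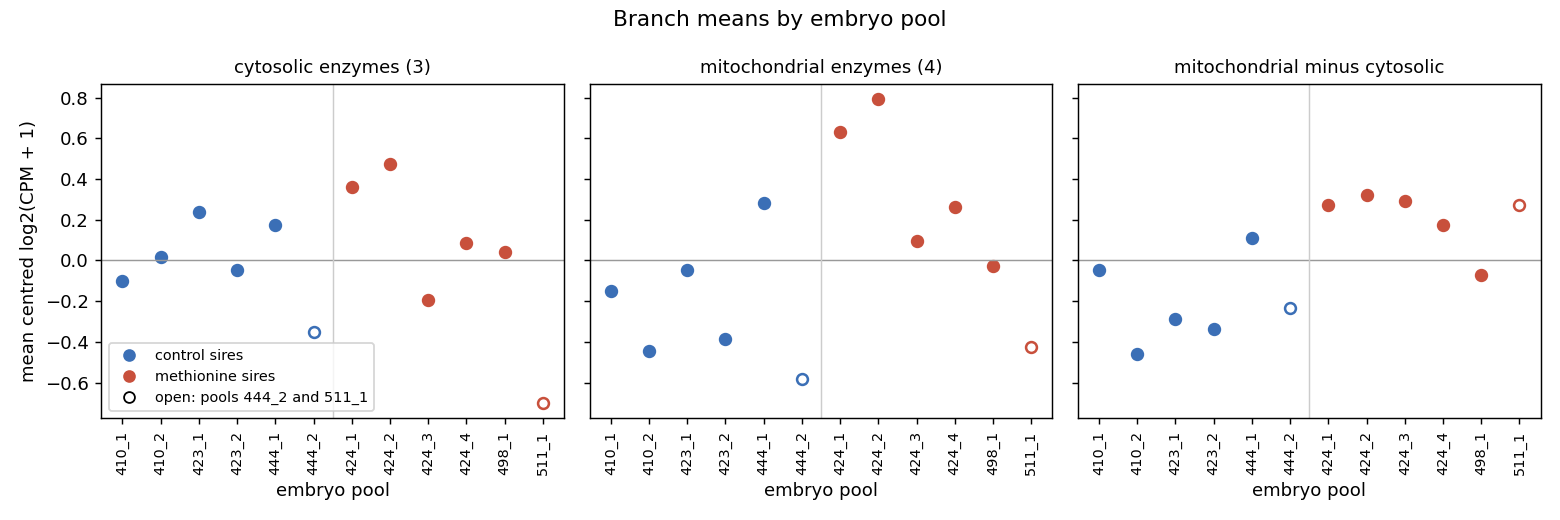
Mean centred log2(CPM + 1) of the 3 cytosolic enzymes, the 4 mitochondrial enzymes and the difference between both means in each of the 12 pools, in blue for control and red for methionine sires, with open circles for pools Embryo444_2 and Embryo511_1. The difference ran from -0.46 to 0.11 in control pools and from -0.07 to 0.32 in methionine pools.

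The cytosolic mean was lowest in pool Embryo511_1 (-0.70) and pool Embryo444_2 (-0.35) and highest in pools Embryo424_2 (0.47) and Embryo424_1 (0.36). The mitochondrial mean was highest in the same pools, Embryo424_2 (0.79) and Embryo424_1 (0.63). It was lowest in pool Embryo444_2 (-0.58), followed by control pool Embryo410_2 (-0.44) and pool Embryo511_1 (-0.43). The median log2 fold change by diet was 0.04 for the 3 cytosolic enzymes and 0.44 for the 4 mitochondrial ones, beside 0.01 over all genes tested. In the 10 pools these medians were -0.08, 0.53 and -0.03.

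Ratios of raw counts within a pool do not depend on the scaling between pools. The ratio of MTHFD1L to MTHFD1, the mitochondrial and cytosolic enzymes that release and load formate, was 2.59, 2.21, 2.35 and 2.55 in the 4 pools of Ram424. It was 1.67 in the pool of Ram498, 1.13 in that of Ram511 and 0.773 to 1.55 in control pools. Ram424 pools lay apart from the other 8 pools in this ratio, while the other treated rams were close to the controls. The ratio of SHMT2 to MTHFD1 was 4.69, 5.87, 2.21 and 2.30 in Ram424 pools, 1.17 and 0.459 in the pools of Ram498 and Ram511, and 0.588 to 2.39 in control pools, so that 2 pools of Ram424 fell below the highest control pool, Embryo410_1. The ratio of ALDH1L2 to MTHFD1 was 2.23 in pool Embryo444_2 and 1.59 in pool Embryo511_1, and 0.404 to 1.07 in the other 10 pools. The ratio of MTHFD2 to MTHFD1 had its extremes in the 2 pools of Ram444, at 1.38 and 0.319. A ratio of counts also reflects the lengths of both transcripts, so it can be compared between pools but not with 1.

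**Figure D4:**
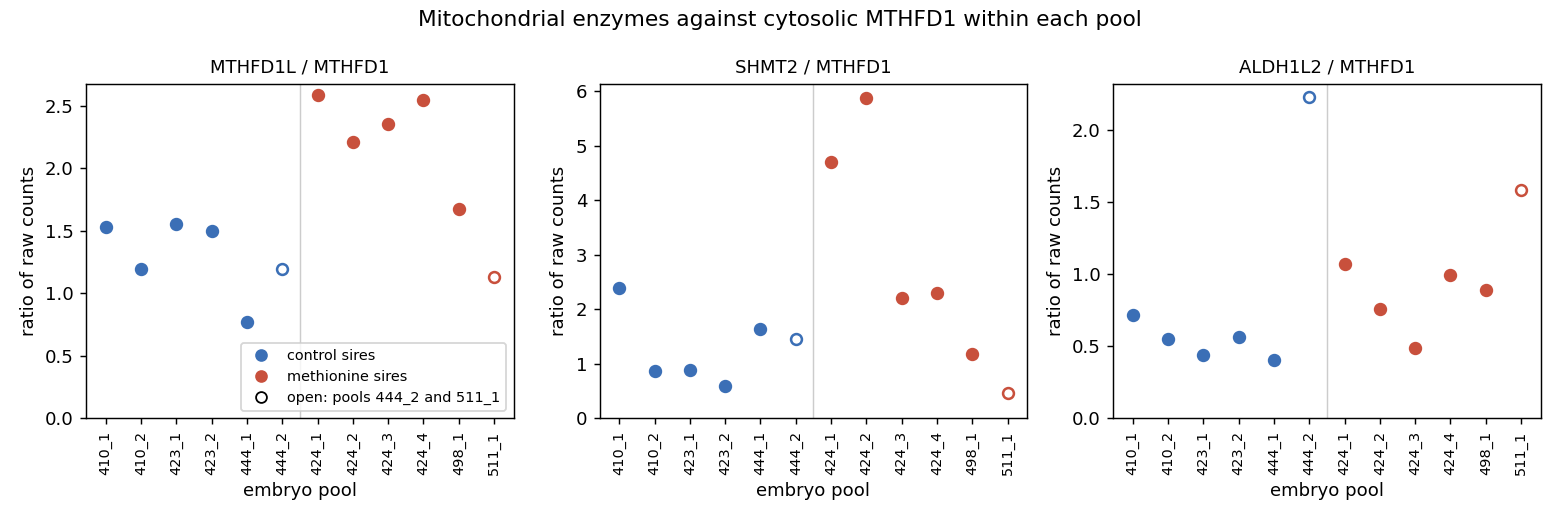
Ratio of the raw counts of MTHFD1L, SHMT2 and ALDH1L2 to those of MTHFD1 in each of the 12 pools, in blue for control and red for methionine sires, with open circles for pools Embryo444_2 and Embryo511_1. The MTHFD1L ratio was 2.21 to 2.59 in Ram424 pools and at most 1.67 elsewhere, and the ALDH1L2 ratio was highest in pools Embryo444_2 and Embryo511_1.

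The enzymes varied differently from each other over the 12 pools. The highest Spearman correlation between 2 of them was 0.66, for MTHFD1L and SHMT2, followed by 0.63 for TYMS and MTHFD1L, which are in different branches. ALDH1L2 and MTHFD1 had the lowest, -0.61, which was -0.32 without pools Embryo444_2 and Embryo511_1. Without these pools the order changed: the highest was 0.75 for TYMS and ALDH1L2 (0.24 in 12 pools), and MTHFD1L and ALDH1L2 had 0.61 (-0.07 in 12 pools). Consecutive enzymes of the mitochondrial route, MTHFD2 and MTHFD1L, had a correlation of 0.05 in 12 pools and -0.07 in 10. These correlations are descriptions over pools that share rams, ewes and library depth. Among 10577 genes with at least 15 counts in every pool, the patterns most like MTHFD1L were those of GDE1 (0.986) and the translation elongation factor EEF1A1 (0.979), and the patterns most like SHMT2 were those of COPS4, a subunit of the COP9 signalosome (0.972), and MCM3, a subunit of the replicative helicase (0.951). The nearest patterns were SS18 (0.888) and ALDH3A2 (0.881) for MTHFD1, MRS2 (0.930) and MLLT1 (0.895) for TYMS, and DNAJB6 (0.930) and RFWD3 (0.881) for GART. For MTHFD2 they were CRTC1 (0.930) and NSD2 (0.888), and for ALDH1L2 they were FOCAD (0.937) and CYBB (0.902). All are Spearman correlations of log2(CPM + 1) over 12 pools. Each was picked as 1 of the 2 highest among 10577 genes, so high values partly reflect this selection. Whether the genes are regulated together was not tested.

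The genes around these enzymes in folate metabolism were examined in 5 lists of 46 genes, of which 44 were tested. None passed the FDR in 12 or 10 pools (edgeR quasi-likelihood test), and 5 had an unadjusted p under 0.05 in 12 pools, 4 with higher and 1 with lower values in methionine pools, beside the 3.55% and 4.37% of all genes. In 10 pools 11 of 43 genes had a higher and 2 a lower value at that threshold, beside the 5.74% and 6.18% of all genes. The lists share pools and libraries with the enzymes above, so they are not independent of them. The plot of gene lists gives every gene.

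Enzymes next to the 7 in the cycle showed no difference by diet at the FDR. MTHFD2L, a mitochondrial relative of MTHFD2, averaged 24.1 ± 14.2 CPM in control and 17.0 ± 2.94 CPM in methionine pools (SD, n = 6 each), and ALDH1L1, the cytosolic counterpart of ALDH1L2, 8.17 ± 2.66 and 8.70 ± 7.30 CPM. In the list of 7 such enzymes the smallest unadjusted p was that of MTHFS, which returns formyl-folate to the pool of active folates, at a log2 fold change of -0.88 (SE 0.42, unadjusted p = 0.0542, adjusted p = 0.638, edgeR quasi-likelihood test with Benjamini-Hochberg adjustment). The list had 3 positive log2 fold changes and a median of -0.13.

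Of 7 genes for uptake and retention of folate, none had an unadjusted p under 0.05 in 12 pools. SLC19A1, the reduced folate carrier, had a log2 fold change of 0.98 (SE 0.51, adjusted p = 0.663 by edgeR's quasi-likelihood test with Benjamini-Hochberg adjustment) but reached 100.1 CPM in pool Embryo511_1 and at most 24.8 CPM in every control pool and 24.1 CPM in the other methionine pools, and its log2 fold change was 0.15 in 10 pools. SLC25A32, the carrier of folate into mitochondria, averaged 32.7 ± 10.5 CPM in control and 31.8 ± 11.8 CPM in methionine pools (SD, n = 6 each). GGH, which cuts the glutamate tail that keeps folate in the cell, had the smallest p of this list, with a log2 fold change of 0.56 (SE 0.27, unadjusted p = 0.0521) in the same edgeR test.

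Among 9 tested genes of serine and glycine supply, 2 had higher and 1 had lower values at an unadjusted p under 0.05 in 12 pools. Over all genes these shares were 3.55% and 4.37%. GLDC, the decarboxylase of the glycine cleavage system, which feeds carbon into mitochondrial folate, was at 187 ± 83.9 CPM in control and 381 ± 306 CPM in methionine pools (SD, n = 6 each), with a log2 fold change of 1.03 (SE 0.49, unadjusted p = 0.0495, adjusted p = 0.630, edgeR quasi-likelihood test with Benjamini-Hochberg adjustment). The GLDC medians were closer, 189 CPM in control and 207 CPM in methionine pools, and the methionine pools ranged from 133 to 778 CPM. DLD, the dehydrogenase subunit that this system shares with other complexes, had a log2 fold change of 0.68 (SE 0.30, unadjusted p = 0.0377) in the same edgeR fit. SARDH, the mitochondrial sarcosine dehydrogenase, was at 15.3 ± 4.72 and 8.0 ± 3.15 CPM (SD, n = 6 each), a log2 fold change of -0.94 (SE 0.36, unadjusted p = 0.0177, adjusted p = 0.585, edgeR). PHGDH and PSAT1, which make serine from glycolytic carbon, had log2 fold changes of 0.00 and -0.05.

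Purine synthesis had no gene of 8 with an unadjusted p under 0.05 in 12 pools, with 7 positive log2 fold changes and a median of 0.42. ATIC, whose transformylase takes the second folate carbon of the purine ring, was at 103 ± 37.1 CPM in control and 155 ± 66.6 CPM in methionine pools (SD, n = 6 each), with 32.6 CPM in pool Embryo444_2 and 24.8 CPM in pool Embryo511_1. Its log2 fold change was 0.59 (SE 0.41, unadjusted p = 0.168) in 12 pools and 0.62 (SE 0.19, unadjusted p = 0.00425, adjusted p = 0.264) in 10 pools by edgeR's quasi-likelihood test with Benjamini-Hochberg adjustment. PPAT, the first committed enzyme of the route, had a log2 fold change of 0.41, and PAICS, a bifunctional enzyme of the same route, had 0.44 in 12 pools and -0.05 in 10 pools, with 129 CPM in pool Embryo511_1. PFAS, which adds a nitrogen to the purine precursor, had the smallest p of this list in 12 pools (log2 fold change -0.56, SE 0.29, unadjusted p = 0.0720, edgeR).

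The list of thymidylate synthesis and S phase held 13 genes. They were genes of deoxynucleotide supply, the replication clamp PCNA and the replicative helicase subunits MCM2 to MCM7. All 13 log2 fold changes were positive in 12 pools and 12 were in 10 pools, with medians of 0.43 and 0.54. Over all genes 50.5% and 47.0% were positive. The 13 genes were measured in the same pools and are not independent of each other. Ram424 gave 4 of the 6 methionine pools, and its part in these differences was not tested. In 12 pools 2 of the 13 genes had an unadjusted p under 0.05, both higher in methionine pools, beside 3.55% of all genes. MCM6, a subunit of the replicative helicase, was at 75.2 ± 9.20 CPM in control and 123 ± 37.2 CPM in methionine pools (SD, n = 6 each), with a log2 fold change of 0.71 (SE 0.24, unadjusted p = 0.00891, adjusted p = 0.584, edgeR quasi-likelihood test with Benjamini-Hochberg adjustment). RRM2, the small subunit of ribonucleotide reductase, was at 47.6 ± 15.6 and 77.1 ± 26.5 CPM, with a log2 fold change of 0.70 (SE 0.30, unadjusted p = 0.0308, edgeR). TK1, which salvages thymidine, had a log2 fold change of 0.91 (SE 0.56) and ranged from 2.83 to 101 CPM within the control pools alone.

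**Figure D5:**
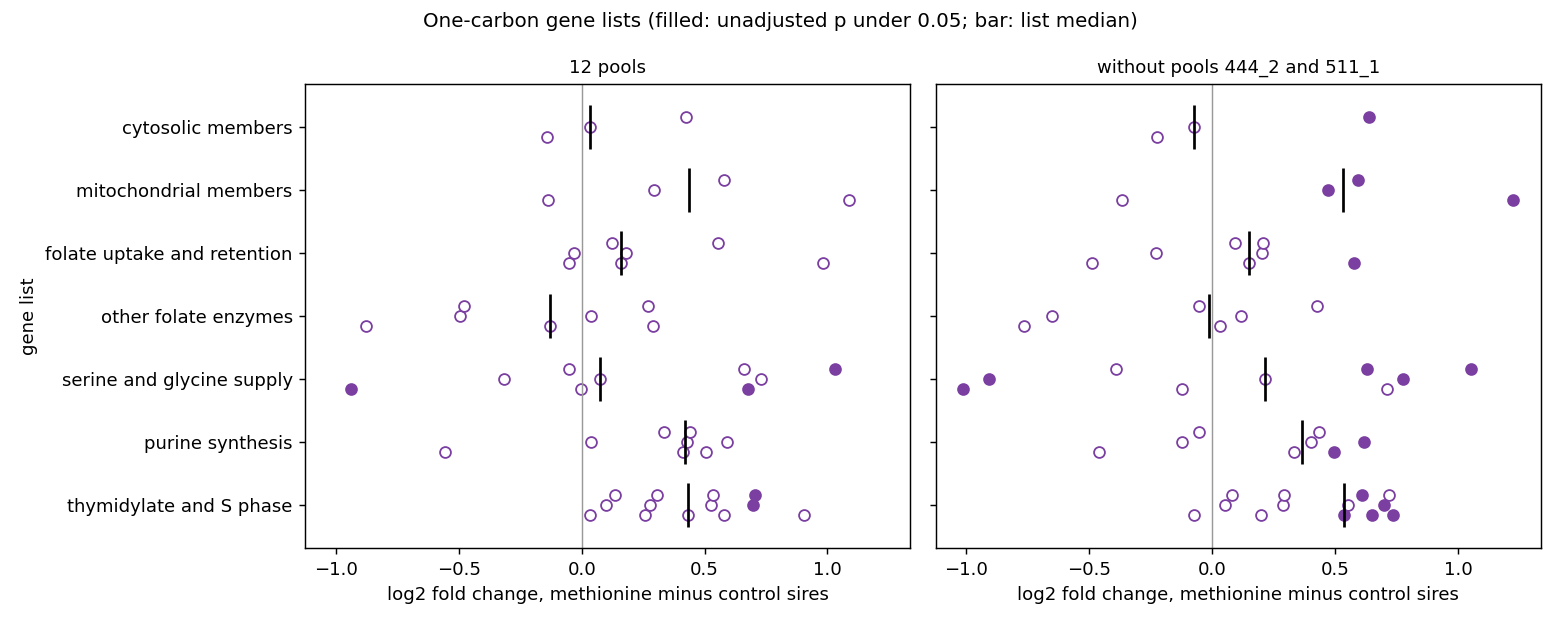
Log2 fold change of each gene, methionine minus control sires, by list, in 12 pools (left) and without pools Embryo444_2 and Embryo511_1 (right), with filled circles for an unadjusted edgeR p under 0.05 and a bar at the median of each list. No gene shown had an adjusted p under 0.05, and the medians of the thymidylate and S phase list were 0.43 and 0.54.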

How the data were processed

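Total RNA of pooled embryos was amplified as a whole transcriptome and sequenced. The authors trimmed the reads with Trimmomatic, aligned them to Oar_rambouillet_v1.0 with STAR and deposited raw counts per gene and pool. The strand column used for the counts and the tool versions were not given in the sources used here, so reads of overlapping antisense genes could not be separated. Since the amplified reads carry no molecular identifiers, they do not count molecules, and Poisson intervals cover counting error only.

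Pools were grouped by the labelled sire diet. A gene was kept when over 3 pools had 15 or more counts. TMM normalization and a quasi-likelihood test of diet followed in edgeR 4.0.16 (R 4.3.3), two-sided, with Benjamini-Hochberg adjustment over all genes tested. SE is the log2 fold change divided by the root of F. Exact two-sided permutation tests used mean log2(CPM + 1) over pools or ram means. Exact ram tests in 12 pools cannot give p under 0.1. Alternatives were edgeR's likelihood-ratio test, DESeq2 1.42.0, a random ram effect in limma 3.58.1, RLE, other filters and pseudocounts, sums per ram and each pool or ram left out. Scripts were tested on simulated data, and figures used Python 3.11.15 with matplotlib 3.10.9.

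The members and lists were chosen with earlier results of these data known. Named are all members, fixed pathway neighbours, the smallest p of each list, and the 2 most alike genes per member. DLD and MROH5 were named after their values were seen. The runs without pools Embryo444_2 and Embryo511_1 or with pools Embryo424_1 and Embryo424_2 summed were added after the data were seen. PAICS and MTHFS were matched through their gene identifiers. PSPH and SFXN1 were not analysed here, and some pathway neighbours are not reported here. Sperm methylation was not used here, since gene positions on its genome build were not among the references used.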

Additional observations from a re-analysis of the deposited data

Results flagged for a closer look

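Single pools far from the rest of their group were looked for in 24 genes, the 7 enzymes and their named pathway neighbours, which gives 48 groups of 6 pools. Dixon's test at the 95% level marked 13 values, and chance alone marks about 1 group in 20. Among the enzymes, MTHFD2 was highest in control pool Embryo444_1 at 194 CPM (next 77.9 CPM) and, in methionine pools, lowest in pool Embryo424_4 at 59.5 CPM (next 71.3 CPM). ALDH1L2 was highest in control pool Embryo444_2 at 149 CPM, with the next control pool at 64.2 CPM.

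Pools Embryo444_2 and Embryo511_1 carried 8 of the 13 values. In control pool Embryo444_2, ALDH1L2 was joined by MTHFD2L at 51.7 CPM (next 24.1 CPM), and ATIC was lowest there at 32.6 CPM (next 101 CPM). In methionine pool Embryo511_1, SLC19A1 was highest at 100.1 CPM (next 24.1 CPM), PAICS at 129 CPM (next 45.2 CPM) and SLC25A32 at 55.5 CPM (next 29.6 CPM), while ATIC was lowest at 24.8 CPM (next 154 CPM) and PHGDH at 19.8 CPM (next 64.9 CPM). These are the pools with 440 and 436 CPM of summed blastocyst markers, and the part of this in the values was not tested. The remaining values were PSAT1 at 141 CPM in methionine pool Embryo424_3 (next 48.6 CPM), TK1 at 101 CPM in control pool Embryo423_1 (next 39.0 CPM) and GGH at 24.8 CPM in control pool Embryo410_1 (next 18.4 CPM).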

How the results depend on the processing

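The number of enzymes and of pathway genes past the FDR was 0 in each of 28 alternatives, among which the likelihood-ratio test called 5 and DESeq2 16 of all genes. Enzymes with an unadjusted p under 0.05 numbered 0 in the 12 pools, 1 (SHMT2) by edgeR's likelihood-ratio test and by DESeq2, 4 without pools Embryo444_2 and Embryo511_1 but 0 once these 10 pools were summed per ram, 0 with 12 pools summed per ram or with a random ram effect, and 0 to 3 with each pool or ram left out, the 3 being TYMS, MTHFD1L and SHMT2 without pool Embryo511_1. With each pool or ram left out, the log2 fold change ran from -0.37 to 0.63 for TYMS, -0.0683 to 0.90 for MTHFD1L and -0.79 to 1.32 for SHMT2, each lowest and reversed without Ram424 alone, from -0.0481 to 0.11 for GART and from -0.33 to 0.37 for MTHFD2. GART also reversed to -0.0751 without pools Embryo444_2 and Embryo511_1, -0.00859 with pools Embryo424_1 and Embryo424_2 summed and -0.14 without the first pair and with pools summed per ram, and MTHFD2 reversed to 0.18 with a random ram effect in limma (consensus correlation of the pools of a ram 0.263). MTHFD1 (-0.26 to -0.017, nearest 0 without Ram423) and ALDH1L2 (0.15 without Ram410 to 0.62 without pool Embryo444_2) kept their direction in all 28. The branch difference by diet stayed between 0.31 (without Ram424) and 0.55 (without TYMS and GART). Without Ram424 the methionine group held only pools Embryo498_1 and Embryo511_1, at -0.07 and 0.27 in the 12 pools. The value of Embryo511_1 depends on TYMS at 6 reads, so the 0.31 does not show that the difference holds without Ram424. The causes were not tested. No paired analysis was possible because the pools of the 2 diets come from different rams. The planned test of sperm methylation at the enzymes was not run, since gene positions on the build of those data were not used here. Of the 7 enzymes, depth limits TYMS most, at 6 to 102 reads per pool, and MTHFS and TK1 were lower still in single pools (Embryo511_1, 1.98 CPM, and Embryo444_2, 2.83 CPM).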
